A study of Mus musculus with 21 samples.

Results

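The genes described here are 8 receptors of myeloid cells that bind ligands on other cells, Siglec1, Siglece, Cd300a, Cd300lf, Pirb, Lilrb4a, Sirpa and Cd200r1. They were taken as a list of symbols from a count table of 54532 mouse genes, and all 8 were found in it. The table holds RNA-seq libraries of myeloid cells that were sorted by flow cytometry from collagenase-digested adipose tissue of male C57BL/6 mice. Obese mice had received a high fat diet and lean mice a normal diet, both for 16 weeks. The 7 groups of 3 libraries each were monocyte-derived cells of obese and of lean mice, MHC class II positive CD11c-positive macrophages of obese mice, MHC class II positive CD11c-negative macrophages of obese and of lean mice, and MHCII-low macrophages of obese and of lean mice. No lean CD11c-positive group was measured, no mouse carried a transgene or deletion per the labels, and the labels give neither the ages of the mice nor whether the replicates were separate or pooled animals. All p-values therefore measure the spread between these libraries, which may be technical in part.

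Inhibitory receptors carry short tyrosine motifs in their cytoplasmic tails. When Src family kinases phosphorylate these tyrosines, the tails bind the phosphatases SHP-1, SHP-2 or SHIP1, which dampen signals from activating receptors on the same cell. Many have an activating relative with a similar outer part that signals through the adaptors DAP12 or the Fc receptor gamma chain, so that the families are called paired receptors. Among the 8, Siglec1 (sialoadhesin, CD169) has no such motif of its own and is known as an adhesion receptor for sialic acids on tissue macrophages, and Cd200r1 signals through Dok adaptor proteins rather than through the phosphatases. The other 6 signal through the classical motif.

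On GRCm38 the SIGLEC genes are Siglec1 at chr2:131069220-131086765 on the minus strand and Siglece at chr7:43651070-43660161 on the minus strand. The CD300 genes lie on chromosome 11, Cd300a at chr11:114890041-114904654 on the plus strand and Cd300lf at chr11:115116214-115133992 on the minus strand. Pirb lies at chr7:3711409-3720391 on the minus strand, and Lilrb4a at chr10:51490956-51496611 on the plus strand. Sirpa lies at chr2:129592835-129632228 and Cd200r1 at chr16:44765736-44794978, both on the plus strand. Counts cover the annotated exons of each gene, and the sources used here do not give the strand setting or the handling of reads with several matches.

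Reads from close relatives may be shared. Of all 50-base windows in the longest coding transcript, 0% recurred in transcripts of another gene for Siglec1, Siglece and Sirpa, 2.17% for Cd200r1, 3.59% for Cd300a and 6.75% for Cd300lf. The share was 37.3% for Pirb, whose windows recurred mainly in Gm14548 and Pira2, an activating relative. It was 100% for Lilrb4a, because Gm49339 on the same strand covers the same coding exons, and 370 of its 1332 windows also recurred in Lilr4b. Of all 5227 annotated exon bases of Lilrb4a, 1846 were shared with Gm49339 and 3353 with no other gene. How reads in the shared bases were counted is not known. Values of Pirb and Lilrb4a are therefore less certain than those of the other 6. Gm49339 itself had 0 to 10 counts per library, while Lilr4b had a level of 1152 to 2735 CPM, which are counts scaled to the size of the library.

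Promoter sequences of 250 bases before to 50 bases after the annotated start were matched for 4 of the 8 genes in RefSeq tables of GRCm38.p6, and are shown because PU.1, the factor that defines myeloid cells, is known to bind purine-rich ETS motifs. They lie at chr7:43660112-43660411 (minus strand) for Siglece, chr11:114889791-114890090 (plus) for Cd300a, chr11:115133943-115134242 (minus) for Cd300lf and chr7:3720333-3720632 (minus) for Pirb. Capitals mark each GAGGAA on either strand, read as TTCCTC on the strand shown where it lies on the other, and the longer GAGGAAGT that contains it.
Siglece: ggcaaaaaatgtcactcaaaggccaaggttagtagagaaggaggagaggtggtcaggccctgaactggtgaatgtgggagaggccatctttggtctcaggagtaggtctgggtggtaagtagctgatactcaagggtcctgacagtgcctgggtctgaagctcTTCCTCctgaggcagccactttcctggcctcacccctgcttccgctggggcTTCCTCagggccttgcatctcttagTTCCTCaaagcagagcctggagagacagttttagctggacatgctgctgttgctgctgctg
Cd300a: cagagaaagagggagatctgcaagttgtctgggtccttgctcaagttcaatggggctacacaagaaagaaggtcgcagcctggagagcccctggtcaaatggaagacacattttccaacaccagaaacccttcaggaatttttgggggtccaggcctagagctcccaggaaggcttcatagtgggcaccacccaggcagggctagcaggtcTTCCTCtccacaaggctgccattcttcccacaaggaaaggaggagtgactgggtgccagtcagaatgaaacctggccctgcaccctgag
Cd300lf: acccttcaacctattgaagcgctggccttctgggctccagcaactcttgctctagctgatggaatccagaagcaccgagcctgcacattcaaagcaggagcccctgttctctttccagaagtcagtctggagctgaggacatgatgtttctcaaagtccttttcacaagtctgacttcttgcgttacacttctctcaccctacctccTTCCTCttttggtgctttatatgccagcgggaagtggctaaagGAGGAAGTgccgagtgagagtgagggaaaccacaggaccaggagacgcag
Pirb: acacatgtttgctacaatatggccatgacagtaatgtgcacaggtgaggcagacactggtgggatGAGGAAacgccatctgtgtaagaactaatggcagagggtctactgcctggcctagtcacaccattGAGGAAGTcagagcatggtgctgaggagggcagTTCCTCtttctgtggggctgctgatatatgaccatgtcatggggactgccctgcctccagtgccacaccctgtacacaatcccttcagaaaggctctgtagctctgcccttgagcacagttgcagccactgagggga
The motif GAGGAA occurred 3 times in Siglece, 1 time in Cd300a, 2 times in Cd300lf and 3 times in Pirb, and 28.3% of all 32851 promoters of this length hold it at least once. GAGGAAGT was found in Cd300lf and Pirb and in 3.20% of all promoters. An interferon response motif, GAAA followed after any 2 bases by another GAAA on either strand, was found in none of the 4 and in 3.44% of all promoters. A match of letters is a description of the sequence and not evidence of binding. The promoters of Siglec1, Lilrb4a, Sirpa and Cd200r1 were not analysed here.

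Library totals ran from 11245851 to 35568948 counts. All 8 receptors passed the filter on low counts, and their counts per library ran from 7 to 172 for Cd300lf and 54 to 483 for Siglece to 3006 to 37920 for Sirpa. Transcripts of the sort markers followed the labels. The MHC class II gene H2-Ab1 averaged 346 ± 89.9 CPM in obese and 233 ± 23.9 CPM in lean MHCII-low macrophages (SD, n = 3 each), below every other group. The CD11c gene Itgax averaged 586 ± 92.5 CPM in CD11c-positive and 85.0 ± 22.2 CPM in obese CD11c-negative macrophages. Of 8 macrophage markers, 11 dendritic cell markers and 8 monocyte markers none was at 0 in all libraries, and the macrophage markers summed to 1452 to 2297 CPM in obese and 576 to 1794 CPM in lean monocyte-derived cells, against 4945 to 7901 CPM in the macrophage groups. Lean monocyte-derived replicate 3 had the lowest total and 67.1% of its counts on protein-coding genes, against 73.7% to 84.0% elsewhere. Transcripts of olfactory and vomeronasal receptor genes, which myeloid cells are not known for, summed to 84.7 to 183 CPM in monocyte-derived cells of obese mice and 334 to 1228 CPM in those of lean mice, and to 24.9 to 56.1 CPM in obese and 73.0 to 249 CPM in lean macrophages. Summed fibroblast markers were higher in the obese library numbered 2 of each population (1789, 1651, 2529 and 2361 CPM) than in the other obese libraries (599.6 to 1214 CPM), and counts of calls are given with and without these 4 libraries. In bulk libraries, fewer cells of a type and less RNA per cell cannot be told apart.

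Obesity moved most of the 8 receptors in both macrophage populations measured in both diets. In MHCII-low macrophages Siglec1, Cd300a, Pirb, Sirpa and Cd200r1 rose and Siglece and Cd300lf fell in obese against lean mice, so that 7 of 8 were called at an adjusted p under 0.05, against 30.7% of the 22935 genes tested (16.8% higher and 13.8% lower). In CD11c-negative macrophages the same 5 genes rose and Siglece fell, 6 of 8 against 32.4% of all genes tested (16.8% higher and 15.6% lower). In monocyte-derived cells Siglec1, Cd300a and Sirpa rose, 3 of 8 against 17.2% (7.44% higher and 9.76% lower). With 1 library left out, 6 to 7 of the 8 were called in MHCII-low macrophages, 3 to 5 in CD11c-negative macrophages and 3 in monocyte-derived cells. In an edgeR fit of the 6 monocyte-derived libraries alone, Cd300a (adjusted p = 0.0906) and Sirpa (0.0511) were not called. Lean libraries had higher olfactory receptor sums and lower totals than obese ones in monocyte-derived cells and in macrophages. Macrophage totals ran from 20783760 to 25914583 counts in lean and from 26648301 to 35568948 counts in obese mice. The part of these sums and totals in the diet comparisons was not tested. Lilrb4a was called in none of the 3 comparisons. The 8 were chosen with earlier results of these data known, so their counts beside the shares of all genes are a description and not a test. The median log2 change of the 8 was 0.75 in MHCII-low macrophages, 0.67 in CD11c-negative macrophages and 0.11 in monocyte-derived cells, and that of all genes tested was -0.07, -0.10 and -0.05. The lean and obese libraries of one comparison are used in no other of these 3. Obese libraries of equal number correlated across populations, as given below, so the 3 comparisons may not be independent. Without the obese libraries numbered 2, 6, 3 and 3 of the 8 were called in the same order of populations.

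**Figure D1:**
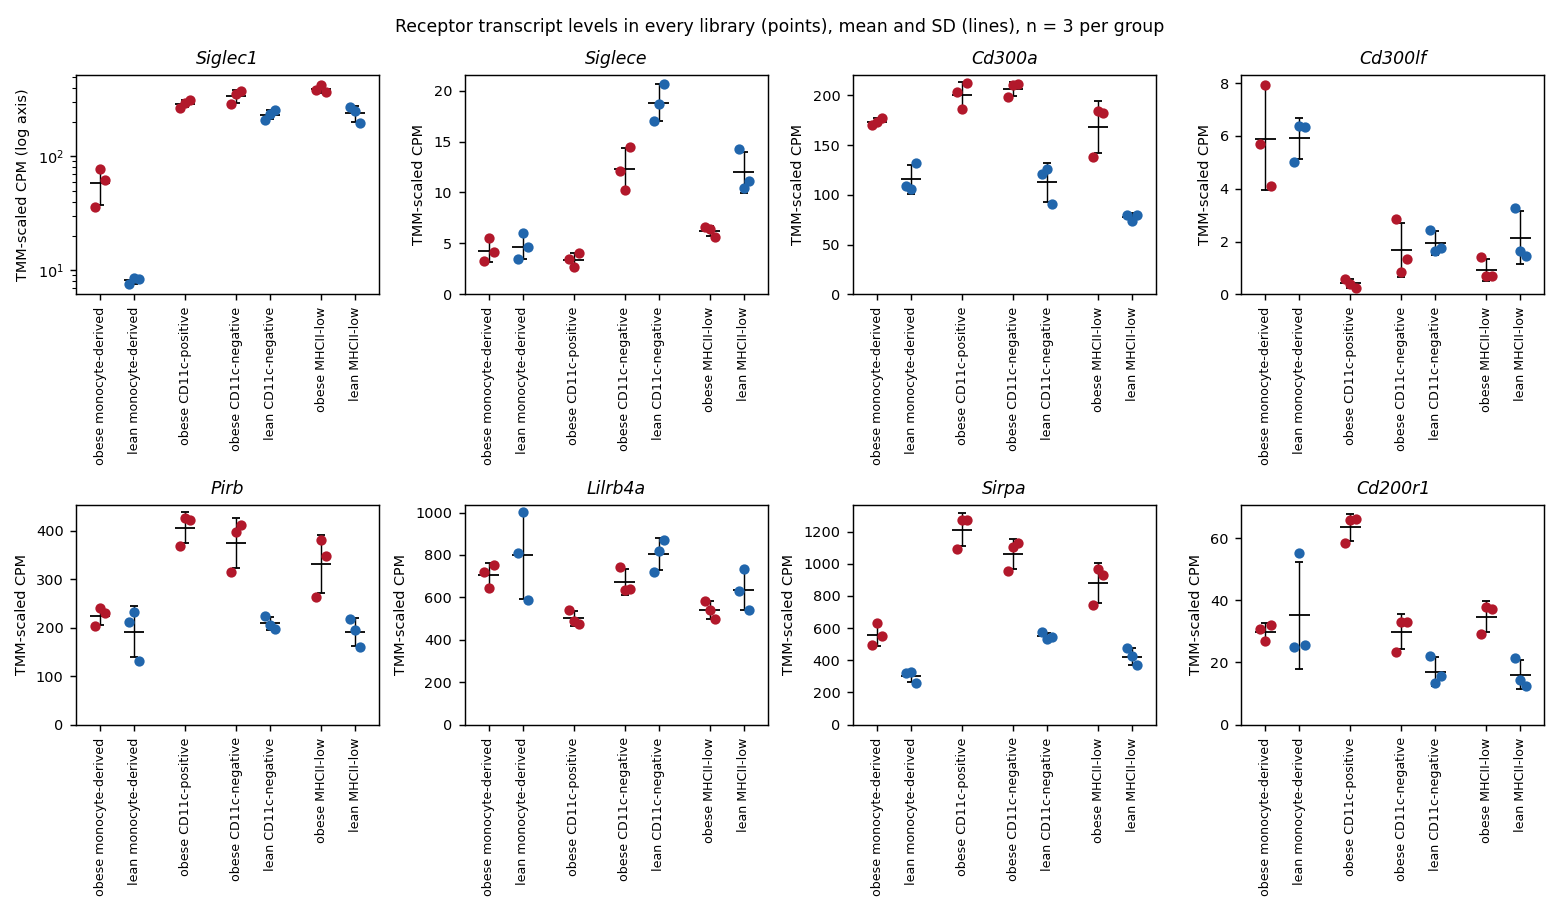
TMM-scaled CPM of each receptor (vertical axis, log scale for Siglec1 only) in every library, red for obese and blue for lean, with a line at the mean and a bar of 1 SD (n = 3 per group). Siglec1 separates both monocyte-derived groups from all macrophages, Siglece is highest in lean CD11c-negative macrophages, and Sirpa is higher in obese than in lean mice in each population.

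Siglec1 had the steepest pattern of the 8 and was the receptor that obesity moved most in monocyte-derived cells. It stood at 36.2, 77.2 and 61.3 CPM in the 3 obese monocyte-derived libraries, against 7.51, 8.60 and 8.32 CPM in the lean ones. In CD11c-negative macrophages it stood at 286, 353 and 376 CPM in obese mice, against 209.5, 234 and 254 CPM in lean mice. In MHCII-low macrophages it stood at 383, 426 and 367 CPM in obese mice, against 270.0, 252 and 196 CPM in lean mice. Obese and lean libraries did not overlap in any of the 3 populations. The log2 change was 2.84 in monocyte-derived cells (SE 0.21, adjusted p = 4.92e-08), a 7.15-fold difference. It was 0.54 in CD11c-negative macrophages (SE 0.18, adjusted p = 0.0293) and 0.71 in MHCII-low macrophages (SE 0.18, adjusted p = 0.00718). The call in CD11c-negative macrophages was lost without lean replicate 1 (adjusted p = 0.101), lean replicate 2 (0.0659), obese replicate 2 (0.0763) or obese replicate 3 (0.123). CD11c-positive macrophages, at 266, 293 and 309 CPM, overlapped both the obese CD11c-negative and the lean MHCII-low libraries. From the highest mean to the lowest the order was obese MHCII-low (392 ± 30.6 CPM), obese CD11c-negative (338 ± 46.9), CD11c-positive (289.7 ± 21.8), lean MHCII-low (239 ± 38.3), lean CD11c-negative (233 ± 22.3), obese monocyte-derived (58.2 ± 20.7) and lean monocyte-derived (8.14 ± 0.56). Each of the first 5 overlapped its neighbour among these 5, and only the steps down to and between the monocyte-derived groups were free of overlap.

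The diet effect on Siglec1 was larger in monocyte-derived cells than in either macrophage population. The log2 diet effect in monocyte-derived cells minus that in MHCII-low macrophages was 2.12 (SE 0.27, adjusted p = 8.24e-05), and minus that in CD11c-negative macrophages it was 2.30 (SE 0.27, adjusted p = 6.06e-05). The first difference was 2.04 with an adjusted p of 0.0687 when limma's voom weighted the groups by their spread. Macrophage markers moved with diet in the same libraries. Of 8 such markers 4 rose and 0 fell in monocyte-derived cells, with a median log2 change of 1.06, and of 10 lipid-associated macrophage markers 8 rose and 0 fell. Of all genes tested 7.44% rose and 9.76% fell there. The macrophage markers summed to 1452, 2194 and 2297 CPM in obese monocyte-derived libraries 1 to 3, against 619, 1794 and 576 CPM in the lean ones. These sums overlapped between the diets, and their part in the Siglec1 difference was not tested.

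**Figure D2:**
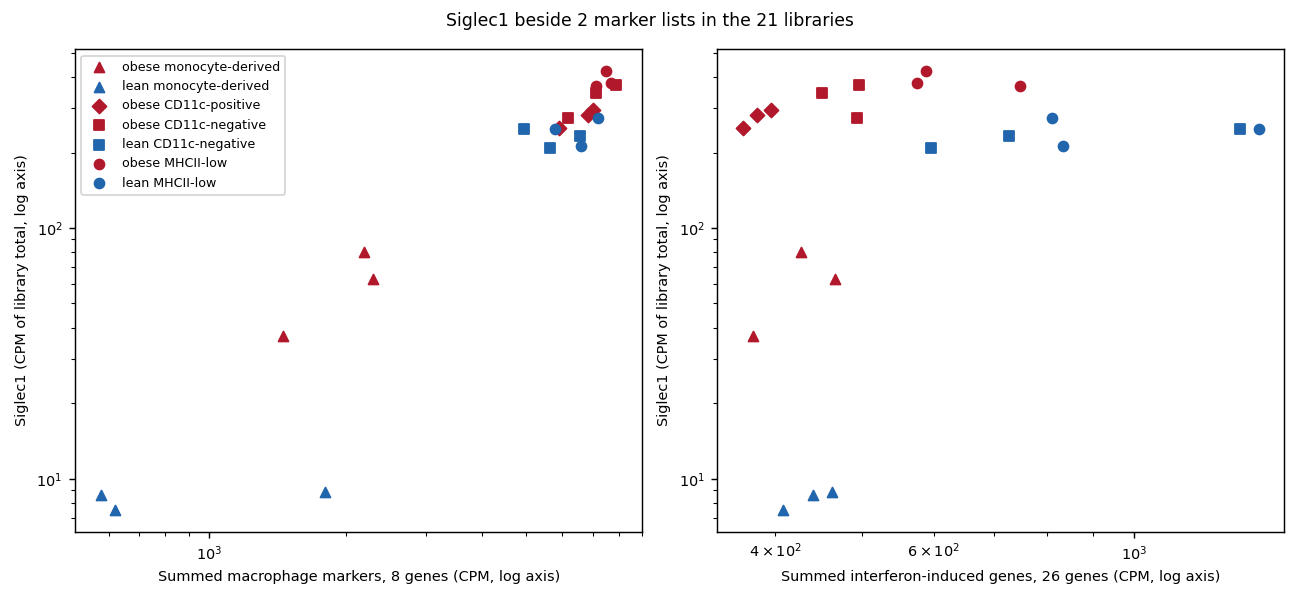
Siglec1 in each of the 21 libraries (CPM of the unscaled library total, log axis) against the summed CPM of 8 macrophage markers (left, log axis) and of 26 interferon-induced genes (right, log axis), with colours for diet and shapes for population. Lean monocyte-derived libraries lie at 7.53 to 8.87 CPM of Siglec1 over macrophage sums of 576 to 1794 CPM, and the obese ones at 37.0 to 80.1 CPM over sums of 1452 to 2297 CPM.

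Siglec1 is also known as an interferon-induced gene, and 26 interferon-induced genes were read beside it. In MHCII-low macrophages 1 of the 26 rose and 4 fell in obese mice, against 16.8% and 13.8% of all genes tested, with a median log2 change of -0.45, and the summed level was 575 to 748 CPM in obese mice, against 810 to 1375 CPM in lean mice. In CD11c-negative macrophages 0 rose and 9 fell, against 16.8% and 15.6%, with a median of -0.57 and sums of 451 to 495 CPM in obese mice and 595 to 1311 CPM in lean mice. In monocyte-derived cells 3 rose and 0 fell, against 7.44% and 9.76%, and the sums of 378 to 466 CPM in obese mice and 408 to 463 CPM in lean mice overlapped. Single genes weighed on the lean sums, with Oasl1 at 46.1 to 344 CPM in lean CD11c-negative macrophages. The part of these genes in the Siglec1 results was not tested.

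Siglece, which binds sialic acids and recruits SHP-1, went the other way to most of the 8 and was lower in obese macrophages. It stood at 12.1, 10.3 and 14.5 CPM in obese CD11c-negative macrophages, against 17.0, 18.7 and 20.7 CPM in lean ones. In MHCII-low macrophages it stood at 6.58, 6.39 and 5.65 CPM in obese mice, against 14.3, 10.4 and 11.2 CPM in lean mice. Neither pair of groups overlapped. The log2 change was -0.61 in CD11c-negative macrophages (SE 0.21, adjusted p = 0.029) and -0.95 in MHCII-low macrophages (SE 0.21, adjusted p = 0.00275). The call in CD11c-negative macrophages was lost without lean replicate 2 (adjusted p = 0.0681), lean replicate 3 (0.136), obese replicate 1 (0.0909) or obese replicate 2 (0.17), and without the low-count filter (0.0569). In monocyte-derived cells it stood at 3.24, 5.49 and 4.13 CPM in obese mice and 3.47, 5.99 and 4.63 CPM in lean mice, with a log2 change of -0.14 (95% interval -0.62 to 0.33, adjusted p = 0.698). The lowest mean, 3.40 ± 0.70 CPM, was that of CD11c-positive macrophages, and the highest, 18.8 ± 1.82 CPM, that of lean CD11c-negative macrophages. The monocyte-derived and CD11c-positive groups overlapped with each other at the low end.

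Among obese macrophages Siglece differed between all 3 populations. CD11c-positive macrophages, at 3.43, 2.68 and 4.09 CPM, were below CD11c-negative ones by a log2 difference of -1.85 (SE 0.22, adjusted p = 9.69e-05), which held without any single library. They were also below MHCII-low macrophages, with a log2 difference of -0.87 (SE 0.22, adjusted p = 0.0104), and CD11c-negative macrophages were above MHCII-low ones by 0.98 (SE 0.21, adjusted p = 0.0104). The call of CD11c-positive against MHCII-low was lost without CD11c-positive replicate 1 (adjusted p = 0.0549), CD11c-positive replicate 2 (0.121) or MHCII-low replicate 1 (0.0777). The call of CD11c-negative against MHCII-low was lost without CD11c-negative replicate 3 (0.0967), MHCII-low replicate 1 (0.0566) or MHCII-low replicate 3 (0.0561).

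Cd300a, a receptor for phospholipids exposed on dying cells, rose in obese mice in all 3 populations. It stood at 170.2, 173 and 177 CPM in obese monocyte-derived cells, against 109, 106 and 132 CPM in lean ones. In CD11c-negative macrophages it stood at 198, 211 and 211 CPM in obese mice, against 121, 126 and 90.5 CPM in lean mice. In MHCII-low macrophages it stood at 138, 184 and 182 CPM in obese mice, against 80.1, 73.8 and 79.5 CPM in lean mice. Every obese library was above every lean library of its population. The log2 changes were 0.59 in monocyte-derived cells (SE 0.13, adjusted p = 0.0053), 0.87 in CD11c-negative macrophages (SE 0.13, adjusted p = 4.95e-05) and 1.11 in MHCII-low macrophages (SE 0.13, adjusted p = 4.52e-06). All 3 calls held without any single library, but in a fit of the 6 monocyte-derived libraries alone the first had an adjusted p of 0.0906. Differences between these 3 diet effects were not called. CD11c-positive macrophages stood at 203, 187 and 212 CPM, and in obese mice no pair of populations was called different in Cd300a, except in a fit of only the libraries compared, where monocyte-derived over CD11c-negative gave -0.21 (adjusted p = 0.045).

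Cd300lf, an inhibitory relative of Cd300a, had the fewest counts of the 8 and the largest SEs. It stood at 1.403, 0.69 and 0.68 CPM in obese MHCII-low macrophages, against 3.29, 1.65 and 1.47 CPM in lean ones, a log2 change of -1.20 (SE 0.43, adjusted p = 0.0388). The groups did not overlap, and the call was lost without lean replicate 1 (adjusted p = 0.212), lean replicate 2 (0.0534), obese replicate 2 (0.141) or obese replicate 3 (0.137). In CD11c-negative macrophages it stood at 2.84, 0.86 and 1.33 CPM in obese mice and 2.45, 1.62 and 1.74 CPM in lean mice, with a log2 change of -0.21 (95% interval -1.07 to 0.65). Its highest levels were in monocyte-derived cells, at 5.68, 7.94 and 4.09 CPM in obese mice and 5.03, 6.38 and 6.35 CPM in lean mice, a ratio of 0.998. Every monocyte-derived library was above every macrophage library. Dendritic cell markers were also higher in monocyte-derived cells, with sums of 542 to 1067 CPM in obese and 759 to 1646 CPM in lean ones, against 64.7 to 431 CPM in the macrophages. Of the 11 markers, 10 were called higher in obese monocyte-derived cells than in MHCII-low macrophages, 9 than in CD11c-negative and 10 than in CD11c-positive macrophages. Of all genes tested 32.8%, 23.8% and 38.7% were called in these comparisons, in either direction. Single markers differed in how far they set the populations apart. Flt3, a receptor of dendritic cells and their precursors, averaged 41.8 ± 21.8 CPM in obese and 80.5 ± 51.6 CPM in lean monocyte-derived cells (SD, n = 3 each), and at most 1.04 ± 0.16 CPM in a macrophage group. Xcr1 averaged 14.4 ± 4.07 and 16.5 ± 6.83 CPM in these cells, and 18.1 ± 6.33 CPM in lean CD11c-negative macrophages. Irf4 averaged 184 ± 43.3 CPM in obese monocyte-derived cells and 261 ± 42.0 CPM in lean MHCII-low macrophages. The part of these markers in any receptor difference between monocyte-derived cells and macrophages was not tested. Monocyte-derived cells exceeded CD11c-positive macrophages, at 0.60, 0.40 and 0.24 CPM, by a log2 difference of 3.81 (SE 0.47, adjusted p = 2.52e-06). They exceeded CD11c-negative macrophages by 1.81 (SE 0.41, adjusted p = 0.0022) and MHCII-low macrophages by 2.66 (SE 0.42, adjusted p = 4.3e-05) in obese mice. The difference from CD11c-negative macrophages had an adjusted p of 0.103 without the 4 obese libraries numbered 2.

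Pirb, a receptor for MHC class I and angiopoietin-like proteins, rose in obese macrophages. It stood at 315, 397 and 412 CPM in obese CD11c-negative macrophages, against 224, 205 and 197 CPM in lean ones. In MHCII-low macrophages it stood at 264, 380.5 and 348 CPM in obese mice, against 218, 195 and 160.4 CPM in lean mice. Obese and lean libraries did not overlap in either population. The log2 change was 0.84 in CD11c-negative macrophages (SE 0.17, adjusted p = 0.00116) and 0.79 in MHCII-low macrophages (SE 0.17, adjusted p = 0.00235), and both held without any single library. In monocyte-derived cells it stood at 204, 240.2 and 229 CPM in obese mice and 212, 232 and 132 CPM in lean mice, with a log2 change of 0.22 (95% interval -0.14 to 0.59, adjusted p = 0.38). The low lean value was that of replicate 3, the library with the lowest total. CD11c-positive macrophages had the highest mean of Pirb, 406 ± 32.0 CPM, which overlapped that of obese CD11c-negative macrophages. Pira2, with which Pirb shares sequence, had a log2 change of 1.05 in MHCII-low macrophages (SE 0.24, adjusted p = 0.00311). Its highest mean was 32.5 ± 14.5 CPM in lean monocyte-derived cells, where Pirb averaged 192 ± 52.8 CPM. In CD11c-positive macrophages, where Pirb was highest, Pira2 averaged 23.7 ± 0.11 CPM. Given the shared sequence, the count of either gene may hold reads of the other, which was not tested.

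Lilrb4a, the mouse counterpart of the human inhibitory receptor LILRB4, was abundant and varied least across groups. It stood at 722, 643 and 754 CPM in obese monocyte-derived cells and 809, 1005 and 587 CPM in lean ones. In CD11c-negative macrophages it stood at 746, 636 and 639 CPM in obese mice and 721, 819 and 873 CPM in lean mice, and in MHCII-low macrophages at 585, 539 and 500.4 CPM in obese mice and 631, 733 and 542 CPM in lean mice. Obese and lean libraries overlapped in every population. The log2 changes were -0.18 (95% interval -0.50 to 0.14) in monocyte-derived cells, -0.26 (-0.58 to 0.06) in CD11c-negative macrophages and -0.23 (-0.55 to 0.09) in MHCII-low macrophages. Its highest group mean was 1.60 times its lowest, the smallest such ratio of the 8, and every group overlapped its neighbour in the order of levels. The difference between populations called with edgeR was obese monocyte-derived over CD11c-positive, the CD11c-positive libraries standing at 542, 489 and 473 CPM, with a log2 difference of 0.49 (SE 0.15, adjusted p = 0.0155). It was lost without any of the CD11c-positive libraries (adjusted p = 0.0552, 0.115 and 0.128 for replicates 1 to 3) and without monocyte-derived replicate 1 (0.11) or 3 (0.127). Obese monocyte-derived over MHCII-low was 0.38 (adjusted p = 0.0623), and was called in 6 of 9 settings, DESeq2 (0.0379) and voom (0.0122) among them. CD11c-positive over CD11c-negative was -0.43 (adjusted p = 0.13), and was called in 3 of 9, voom (0.00658) among them. In neither pair did the libraries overlap.

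Sirpa, the receptor for CD47, a surface protein that restrains phagocytosis, was the most abundant of the 8 per kilobase of exon in CD11c-positive macrophages, at 247 ± 20.8 CPM per kilobase. It rose in obese mice in all 3 populations. In monocyte-derived cells it stood at 492, 633 and 552 CPM in obese mice, against 318, 329.9 and 258 CPM in lean mice. In CD11c-negative macrophages it stood at 957, 1104 and 1126 CPM in obese mice, against 573, 535 and 546 CPM in lean mice. In MHCII-low macrophages it stood at 742, 969 and 929.9 CPM in obese mice, against 473, 424 and 372 CPM in lean mice. Obese libraries were above lean libraries in each population without overlap. The log2 changes were 0.89 (SE 0.13, adjusted p = 0.000222), 0.95 (SE 0.13, adjusted p = 3.67e-05) and 1.06 (SE 0.14, adjusted p = 1.36e-05) in the same order. Each held without any single library, and in a fit of the 6 monocyte-derived libraries alone the first had an adjusted p of 0.0511. The differences between the diet effects were small, -0.17 for monocyte-derived minus MHCII-low (95% interval -0.56 to 0.23), -0.06 for monocyte-derived minus CD11c-negative (-0.45 to 0.34) and -0.11 for CD11c-negative minus MHCII-low (-0.50 to 0.28).

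Sirpa also followed population. CD11c-positive macrophages, at 1093, 1271 and 1269.8 CPM, exceeded obese MHCII-low macrophages by a log2 difference of 0.46 (SE 0.13, adjusted p = 0.0242), a call lost without CD11c-positive replicate 2 (0.119), CD11c-positive replicate 3 (0.114) or MHCII-low replicate 1 (0.227). Obese monocyte-derived cells were below CD11c-positive, CD11c-negative and MHCII-low macrophages by log2 differences of -1.12, -0.93 and -0.65, each called with or without any single library. In order, the means were CD11c-positive 1211 ± 102, obese CD11c-negative 1062 ± 92.1, obese MHCII-low 880.1 ± 122, obese monocyte-derived 559 ± 70.8, lean CD11c-negative 551 ± 19.8, lean MHCII-low 423 ± 50.4 and lean monocyte-derived 302 ± 38.7 CPM. Neighbours overlapped among the 3 obese macrophage groups and between obese monocyte-derived and lean CD11c-negative cells.

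Cd200r1, the receptor for CD200, was highest in CD11c-positive macrophages and rose with obesity in both macrophage populations. It stood at 23.4, 33.1 and 33.0 CPM in obese CD11c-negative macrophages, against 22.2, 13.4 and 15.6 CPM in lean ones, and at 29.1, 37.9 and 37.3 CPM in obese MHCII-low macrophages, against 21.3, 14.4 and 12.6 CPM in lean ones. Neither pair overlapped. The log2 change was 0.81 in CD11c-negative macrophages (SE 0.26, adjusted p = 0.0253) and 1.11 in MHCII-low macrophages (SE 0.26, adjusted p = 0.00474). The first was lost without lean replicate 2 (adjusted p = 0.139), lean replicate 3 (0.0963), obese replicate 2 (0.114) or obese replicate 3 (0.125). In monocyte-derived cells it stood at 30.8, 26.8 and 32.0 CPM in obese mice and 24.8, 55.1 and 25.7 CPM in lean mice, with a log2 change of -0.24 (95% interval -0.79 to 0.30). The spread in the lean group came from replicate 2. The diet effect in monocyte-derived cells minus that in MHCII-low macrophages was -1.35 (SE 0.37, adjusted p = 0.0441). Without lean monocyte-derived replicate 2 it was -0.82 (adjusted p = 0.0714), and the call was lost in 10 of the 12 fits that left out 1 library of the 4 groups. It was also lost with a replicate block on the title number (adjusted p = 0.0582) or the description number (0.0837), with voom (0.106) and with only the libraries compared (0.134).

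In CD11c-positive macrophages Cd200r1 stood at 58.5, 65.9 and 66.2 CPM, above every other library of the series. The log2 difference was 1.09 over obese CD11c-negative macrophages (SE 0.26, adjusted p = 0.0253) and 0.87 over obese MHCII-low macrophages (SE 0.26, adjusted p = 0.0292). Both calls were lost whichever of the 6 libraries was left out, with adjusted p of 0.07 to 0.226 and 0.0691 to 0.216, while the log2 differences stayed between 0.97 and 1.21 and between 0.78 and 0.98. The difference of obese monocyte-derived cells from CD11c-positive macrophages was -1.09 (SE 0.26, adjusted p = 0.00282).

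**Figure D3:**
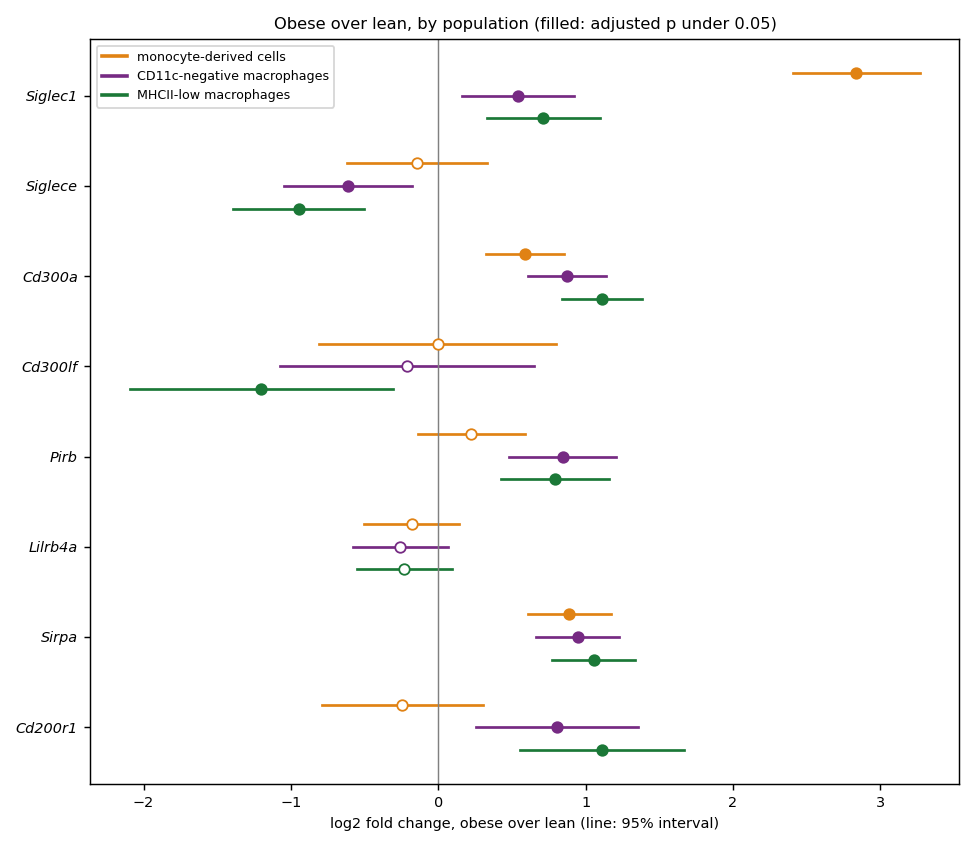
Log2 fold change of each receptor in obese over lean mice (points) with its 95% interval (lines) in monocyte-derived cells, CD11c-negative macrophages and MHCII-low macrophages, 3 libraries per group, where a filled point has an adjusted p under 0.05. Siglec1 in monocyte-derived cells lies at 2.84, apart from its values of 0.54 and 0.71 in the macrophages, Sirpa and Cd300a are filled in all 3, and the intervals of Lilrb4a include 0.

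The 3 diet effects were compared with each other over all 8 receptors. For monocyte-derived cells minus MHCII-low macrophages 2 of 8 differences were called, those of Siglec1 and Cd200r1, against 4.33% of all genes tested. For monocyte-derived cells minus CD11c-negative macrophages 1 of 8 was called, that of Siglec1, against 6.36%. For CD11c-negative minus MHCII-low macrophages 0 of 8 and 0% of all genes were called with edgeR, where 0 of the 8 and 634 of all genes had an unadjusted p under 0.05. DESeq2 called 0 of the 8 and 8 of all genes there, and voom called 0 and 0. The largest of these uncalled differences were 0.99 for Cd300lf (95% interval -0.25 to 2.23) and 0.33 for Siglece (-0.28 to 0.95).

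Among the populations of obese mice, the 8 receptors gave more calls between monocyte-derived cells and macrophages than among the macrophages, as did all genes tested. Monocyte-derived cells over CD11c-positive macrophages gave 6 of 8 calls against 38.7% of all genes tested, over CD11c-negative macrophages 5 of 8 against 23.8%, and over MHCII-low macrophages 4 of 8 against 32.8%. Siglec1 was lower in monocyte-derived cells in all 3, with log2 differences of -2.32, -2.54 and -2.75, and Cd300lf was higher in all 3. Pirb and Sirpa were lower in all 3 as well, with Pirb at -0.86, -0.74 and -0.56, and the call of Pirb against MHCII-low macrophages was lost in 5 of 6 fits without 1 library (adjusted p up to 0.143). CD11c-positive over CD11c-negative macrophages gave 3 of 8 calls against 3.49%, those of Siglece, Cd300lf (log2 difference -1.99, SE 0.47, adjusted p = 0.0219) and Cd200r1. The call of Cd300lf was lost without CD11c-negative replicate 1 (adjusted p = 0.237), CD11c-positive replicate 2 (0.125) or CD11c-positive replicate 3 (0.134). CD11c-positive over MHCII-low macrophages gave 3 of 8 against 14.3%, those of Siglece, Sirpa and Cd200r1. CD11c-negative over MHCII-low macrophages gave 1 of 8, Siglece, against 3.05%. Without the 4 obese libraries numbered 2, CD11c-positive over CD11c-negative gave 1 call and CD11c-positive over MHCII-low 0. These comparisons share the obese groups with each other and with the diet comparisons.

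**Figure D4:**
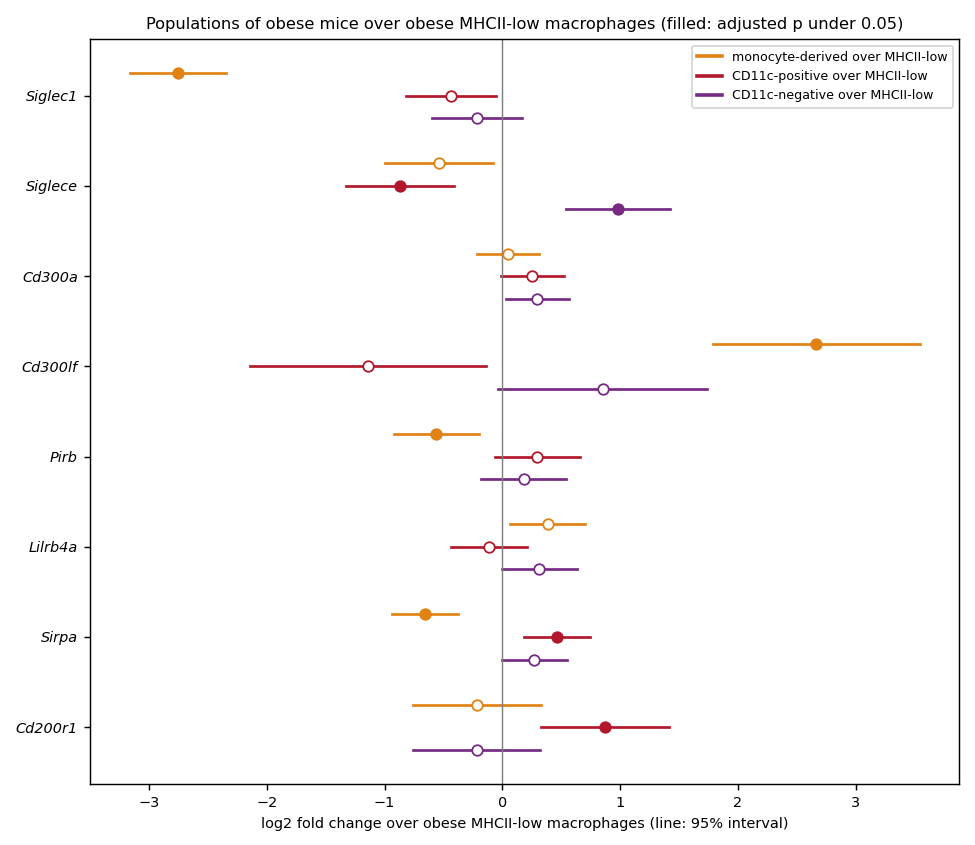
Log2 fold change of each receptor in obese monocyte-derived cells, CD11c-positive and CD11c-negative macrophages over obese MHCII-low macrophages (points) with 95% intervals (lines), 3 libraries per group, where a filled point has an adjusted p under 0.05. Monocyte-derived cells lie at -2.75 for Siglec1 and 2.66 for Cd300lf, and Siglece lies at 0.98 in CD11c-negative and -0.87 in CD11c-positive macrophages.

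In lean mice, too, more of the 8 were called between monocyte-derived cells and macrophages than among the macrophages. Lean monocyte-derived cells over CD11c-negative macrophages gave 5 of 8 calls against 43.7% of all genes tested, and over MHCII-low macrophages 6 of 8 against 46.0%. Siglec1 was lower by log2 differences of -4.84 (SE 0.22, adjusted p = 3.39e-12) and -4.88 (SE 0.22, adjusted p = 1.77e-12). Siglece was lower at -1.99 and -1.34 and Sirpa at -0.87 and -0.49, while Cd300lf was higher at 1.61 and 1.47 and Cd200r1 at 1.05 and 1.14. Pirb was called in neither comparison, with log2 differences of -0.12 (95% interval -0.48 to 0.24) and 0.01 (-0.35 to 0.37). How far these differences changed with diet is the same contrast as the difference between diet effects given above. Cd200r1 over CD11c-negative macrophages was no longer called without lean CD11c-negative replicate 2 (adjusted p = 0.0726). Cd300a was called only over MHCII-low macrophages, by 0.57 (SE 0.13, adjusted p = 0.00114). CD11c-negative over MHCII-low macrophages gave 1 of 8 calls against 1.30%, that of Cd300a at 0.54 (SE 0.13, adjusted p = 0.0376), which was lost without lean CD11c-negative replicate 1 (0.186) or 2 (0.233) and without MHCII-low replicate 1 (0.17), 2 (0.167) or 3 (0.126).

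Genes that carry the receptors' signal were read from a list of 14. In MHCII-low macrophages 8 rose and 0 fell in obese mice, against 16.8% and 13.8% of all genes tested, with a median log2 change of 0.67. In CD11c-negative macrophages 9 rose and 1 fell (median 0.65), against 16.8% and 15.6%, and in monocyte-derived cells 8 rose and 1 fell (median 0.45), against 7.44% and 9.76%. The shares of all genes are the same for the lists that follow. Ptpn6, which encodes SHP-1, averaged 83.6 ± 3.02 CPM in obese and 57.6 ± 7.76 CPM in lean monocyte-derived cells (SD, n = 3 each). It averaged 111 ± 19.2 CPM in obese and 49.2 ± 2.79 CPM in lean CD11c-negative macrophages, and 107 ± 15.9 CPM in obese and 51.3 ± 6.42 CPM in lean MHCII-low macrophages. Its log2 changes were 0.54 (adjusted p = 0.0156), 1.17 (adjusted p = 6.91e-06) and 1.07 (adjusted p = 2.17e-05) in that order. The adaptor Fyb, which Sirpa is known to engage, rose by 0.88 in monocyte-derived cells, 0.98 in CD11c-negative macrophages and 0.86 in MHCII-low macrophages. Csk, a kinase that restrains Src kinases, rose by 0.52, 0.67 and 0.71 in the same order. Dok1, of the adaptor family that Cd200r1 recruits, rose by 0.97 in MHCII-low macrophages. Dok2 of the same family overlapped between the diets in each population. It averaged 108 ± 8.52 CPM in obese and 87.6 ± 15.3 CPM in lean MHCII-low macrophages, and 103 ± 14.7 and 127 ± 48.4 CPM in monocyte-derived cells. Ptpn11, which encodes SHP-2, averaged 105 ± 5.50 CPM in obese and 130 ± 6.65 CPM in lean monocyte-derived cells. Inpp5d, which encodes SHIP1, rose by 0.45 and Dok3 by 0.92 in monocyte-derived cells.

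Of 9 genes of known ligands 3 rose in MHCII-low macrophages, 2 in CD11c-negative macrophages and 2 in monocyte-derived cells, and 0 fell in each. In CD11c-negative macrophages 2 of 9 is a somewhat larger share than the 16.8% of all genes tested that rose, over few genes, and this was not tested. Cd47, the ligand of Sirpa, averaged 376 ± 30.8 CPM in obese and 214 ± 19.7 CPM in lean CD11c-negative macrophages, and 333 ± 27.7 CPM in obese and 215 ± 30.5 CPM in lean MHCII-low macrophages. Its log2 change was 0.81 (SE 0.15, adjusted p = 0.000452) in CD11c-negative and 0.63 (SE 0.15, adjusted p = 0.00422) in MHCII-low macrophages. Spn (CD43), a sialylated ligand of Siglec1, rose by 0.90 and 1.21 in the same populations. Angptl2, a ligand of Pirb, rose by 0.77 in MHCII-low macrophages and 1.06 in monocyte-derived cells. Apoe, a ligand of human LILRB4, rose by 1.82 in monocyte-derived cells (SE 0.34, adjusted p = 0.00226). Cd200, the ligand of Cd200r1, was low, at 7.18 ± 1.85 CPM in obese and 5.35 ± 5.04 CPM in lean monocyte-derived cells and at 10.2 ± 1.62 CPM in CD11c-positive macrophages, and was called in no diet comparison.

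Activating relatives of the 8 receptors were called in both directions. Of 18 listed genes that were matched, 9 rose and 4 fell in MHCII-low macrophages, 10 rose and 4 fell in CD11c-negative macrophages, and 5 rose and 2 fell in monocyte-derived cells. The 4 of 18 that fell are a somewhat larger share than the 13.8% and 15.6% of all genes tested, over few genes, and this was not tested. Cd300c2, an activating CD300 receptor, rose by log2 changes of 1.33 in monocyte-derived cells, 1.09 in CD11c-negative and 0.96 in MHCII-low macrophages. Sirpb1a, an activating relative of Sirpa, rose by 1.06, 2.18 and 1.38, Sirpb1b by 2.09 in CD11c-negative macrophages and Sirpb1c by 1.11 in monocyte-derived cells, and these 3 close copies may share reads. Cd200r4, an activating relative of Cd200r1, rose by 1.14 in MHCII-low macrophages, and Cd300lb by 1.04 in monocyte-derived cells. Siglech, a receptor known from plasmacytoid dendritic cells, fell, with log2 changes of -4.46 in CD11c-negative and -2.65 in MHCII-low macrophages. Dendritic cell markers were read beside it. Of 11 such markers 5 fell in CD11c-negative and 4 in MHCII-low macrophages and 0 rose, with sums of 74.0 to 103 CPM in obese and 292 to 359 CPM in lean CD11c-negative macrophages, and of 129.9 to 215 CPM in obese and 353 to 431 CPM in lean MHCII-low macrophages. None of these markers was at 0 in all libraries, and their part in the fall of Siglech was not tested.

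Among 20 other inhibitory receptors 7 rose and 4 fell in MHCII-low macrophages, 7 rose and 5 fell in CD11c-negative macrophages, and 4 rose and 0 fell in monocyte-derived cells, with medians of 0.03, 0.23 and 0.05. The falls in the macrophages, 4 and 5 of 20, are somewhat larger shares than the same 13.8% and 15.6% of all genes tested, over few genes, and this was not tested. The C-type lectin Clec12a rose by log2 changes of 1.12 in monocyte-derived cells, 1.13 in CD11c-negative and 1.02 in MHCII-low macrophages. Cd22 rose by 2.21 and 2.23 in the same macrophages, Havcr2 (TIM-3) by 1.45 in CD11c-negative and Milr1 by 0.93 in MHCII-low macrophages. Cd33, a further SIGLEC, fell in CD11c-negative macrophages, with a log2 change of -1.46, and Pdcd1 (PD-1) in MHCII-low macrophages, with -2.49. Pdcd1 was low, at 0.43 ± 0.19 CPM in obese and 2.42 ± 0.21 CPM in lean MHCII-low macrophages. It averaged 0.43 ± 0.08 CPM in obese and 1.74 ± 0.45 CPM in lean CD11c-negative macrophages. In monocyte-derived cells the collagen receptor Lair1 rose by 1.82, Cd72 by 1.31 and Vsir by 0.63. Lymphocyte markers were read beside Cd22, Cd72 and Pdcd1, which lymphocytes also express, and Cd22 is itself 1 of the 7 B cell markers. Of 10 T and NK cell markers 8 fell in MHCII-low macrophages, 5 in CD11c-negative macrophages and 1 in monocyte-derived cells, and 0 rose. Their sums were 4.61 to 7.45 CPM in obese and 13.8 to 24.9 CPM in lean MHCII-low macrophages, 4.89 to 5.35 CPM in obese and 13.7 to 17.9 CPM in lean CD11c-negative macrophages, and 16.5 to 19.1 CPM in obese and 27.0 to 65.5 CPM in lean monocyte-derived cells. Of the B cell markers 1 rose and 3 fell in MHCII-low macrophages, 1 rose and 1 fell in CD11c-negative macrophages and 0 were called in monocyte-derived cells. The B cell sums overlapped between the diets, at 159.7 to 197 CPM in obese and 180.3 to 216 CPM in lean MHCII-low macrophages, 139.7 to 176 CPM in obese and 170.2 to 187 CPM in lean CD11c-negative macrophages, and 85.7 to 136 CPM in obese and 84.9 to 133 CPM in lean monocyte-derived cells. The part of both lists in these results was not tested.

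Other marker lists moved with diet beside the 8 receptors. All 10 lipid-associated macrophage markers rose and 0 fell in both macrophage populations, with sums of 5055 to 7369 CPM in obese and 1364 to 1695 CPM in lean CD11c-negative macrophages, and 3868 to 7025 CPM in obese and 1464 to 1815 CPM in lean MHCII-low macrophages. Of 10 resident macrophage markers 6 fell in CD11c-negative and 3 in MHCII-low macrophages and 0 rose in either. Of 10 fibroblast markers 5 rose in monocyte-derived cells, 3 in CD11c-negative and 3 in MHCII-low macrophages and 0 fell, with sums of 599.6 to 1789 CPM in obese and 234 to 354 CPM in lean monocyte-derived cells. None of these markers was at 0 in all libraries, and their part in the receptor results was not tested.

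Genes whose group means followed those of each receptor were named by the highest Pearson r of log2 CPM over the 7 groups, among 8646 protein-coding genes, and with so few points high values are common. Siglec1 was most like Cebpa, Scamp5 and Atp6v0d1 (each r = 0.998), Siglece like Sp4 (0.982), Raph1 and Pogk, and Cd300a like Edc4 (0.994), Col4a2 and Rgs1. Cd300lf was most like Zfp821 (0.991), Rrad and Il15ra, Pirb like Dagla (0.998), Mcrip1 and Tmem19, and Lilrb4a like Son (0.988), Specc1l and Cxcl10. Sirpa was most like Itgb5 (0.995), Clec12a and Gpr137b, and Cd200r1 like Oxct1 (0.992), Slc25a13 and Rab6a. Among the 8 themselves the highest r was 0.963 between Pirb and Sirpa, and the lowest was -0.823 between Siglece and Cd200r1. All points share libraries and depth.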

How the data were processed

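RNA was measured in 21 libraries of sorted mouse adipose myeloid cells, 7 groups of 3. The deposited values are raw read counts per gene. Per the submitters' processing notes they were made on GRCm38 with bcl2fastq, with Trim Galore 0.4.5, with STAR 2.6.0a, and with featureCounts from the Subread package 1.4.6-p5. The strand setting and the treatment of reads with several matches are not given in the sources used here. Of 54532 gene IDs, 53315 matched GENCODE M21 with their version and 54495 without it.

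Genes were filtered with filterByExpr (22935 tested) and libraries scaled by TMM in edgeR 4.0.16 on R 4.3.3. A robust quasi-likelihood model of the 7 group means gave 14 residual degrees of freedom and 15 contrasts. P-values are 2-sided and were adjusted by Benjamini-Hochberg over all genes tested in a contrast, with calls at 0.05. CPM are TMM-scaled, given as mean ± SD, and log2 CPM uses a prior count of 2. Sums over lists are CPM of the library total. Each SE of a log2 change is the one its F statistic implies. Totals ran from 11245851 to 35568948 counts, which limits the precision of Cd300lf and Siglece most, and since PCR copies reads, counting error is a lower limit.

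The 8 receptors and the gene lists were chosen with earlier results of these data known. Named genes are the 8 receptors, the 3 genes most like each, with at least 10 CPM in their highest group, and up to 4 called genes of each pathway list by smallest p in a diet comparison. Pira2 in the account of Pirb, Lilr4b and Gm49339 were named for shared sequence, and Dok1, Dok2, Ptpn11, Cd200 and the sort markers for their roles. A gene that this rule names is not reported here. Marker lists are given by counts and sums, with single markers named where levels within a list differed. Of the activating list 18 of 21 symbols were matched. Alternatives were DESeq2 1.42.0 and its size factors, voom of limma 3.58.1 with group weights, no low-count filter, fits of only the libraries compared, replicate blocks and leaving out each library. Leaving out the obese libraries numbered 2, and the lean monocyte-derived group, was chosen after seeing the data. The fits were tested on simulated counts.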

Additional observations from a re-analysis of the deposited data

Results flagged for a closer look

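The diet effect on Siglec1 was larger in monocyte-derived cells than in MHCII-low macrophages, by a log2 difference of 2.12 (SE 0.27, adjusted p = 8.24e-05 with edgeR), and larger than in CD11c-negative macrophages by 2.30 (SE 0.27, adjusted p = 6.06e-05). Siglec1 was higher in all 3 obese than in all 3 lean libraries in each of the 3 populations. The diet effect on Cd200r1 was lower in monocyte-derived cells than in MHCII-low macrophages by a log2 difference of -1.35 (SE 0.37, adjusted p = 0.0441). In lean monocyte-derived cells 1 library stood at 55.1 CPM and the others at 24.8 and 25.7 CPM, and without it the difference was -0.82 (adjusted p = 0.0714). The call was also lost with voom, with only the libraries compared and with either replicate block.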

How the results depend on the processing

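No log2 change of a receptor that was called, or became called, turned its direction under any alternative run. Of 1016 comparisons of a value with its main value under alternatives other than leaving out 1 library, 967 kept their side of the threshold, 28 lost and 21 gained a call. With 1 library left out, 793 of 864 kept it, 66 lost and 5 gained a call. Size factors of DESeq2 shifted the median of all genes by at most -0.0726 on the log2 scale.

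The number of the 8 receptors called moved by over 1.5 times as follows, and the cause was not tested except that fewer libraries leave fewer degrees of freedom. Without the obese libraries numbered 2, the diet comparison in CD11c-negative macrophages gave 3 in place of 6, CD11c-positive over MHCII-low 0 in place of 3, CD11c-positive over CD11c-negative 1 in place of 3, lean CD11c-negative over MHCII-low 0 in place of 1, and the diet effect in monocyte-derived minus MHCII-low 1 in place of 2. With only the libraries compared, the diet comparison in monocyte-derived cells gave 1 in place of 3, lean CD11c-negative over MHCII-low 2 in place of 1, and the diet effect in monocyte-derived minus MHCII-low 1 in place of 2. Lean CD11c-negative over MHCII-low gave 0 with DESeq2 size factors or without the low-count filter, and 2 with voom. The diet effect in monocyte-derived minus MHCII-low gave 0 with voom. The diet effect in monocyte-derived minus CD11c-negative gave 2 in place of 1 with DESeq2 or without the filter.

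With 1 library left out, the counts ran from 6 to 7, 3 to 5 and 3 to 3 for the diet comparisons in MHCII-low, CD11c-negative and monocyte-derived cells. They ran from 0 to 1 for obese CD11c-negative over MHCII-low, 0 to 2 for CD11c-positive over MHCII-low and 1 to 2 for CD11c-positive over CD11c-negative. For obese monocyte-derived cells they ran from 3 to 4 over MHCII-low, 5 to 5 over CD11c-negative and 5 to 6 over CD11c-positive. In lean mice they ran from 0 to 1 for CD11c-negative over MHCII-low, 6 to 7 for monocyte-derived over MHCII-low and 4 to 5 for monocyte-derived over CD11c-negative. For the differences between diet effects they ran from 0 to 0 (CD11c-negative minus MHCII-low), 1 to 3 (monocyte-derived minus MHCII-low) and 1 to 2 (monocyte-derived minus CD11c-negative).

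Replicate numbers were checked for pairing over 8201 genes. Among obese libraries, 17 of 18 pairs with the same number correlated above 0.1 (0.0829 to 0.772) and all 12 libraries correlated best with one of their own number. In lean libraries 4 of 9 pairs of equal title number and 5 of 7 of equal description number did so, and 5 and 7 of the 9 libraries correlated best with their own number. Of the 36 obese pairs of unequal number 2 correlated above 0.1 (-0.701 to 0.236). Obese libraries thus grouped by number, while the labels do not say whether equal numbers mark shared animals or batches. The main fits do not use the numbers, so their tests between obese populations leave out a possible pairing. Fits with a replicate block were run as an alternative. A replicate block on the title number gave 1 call in place of 2 for the diet effect in monocyte-derived minus MHCII-low, losing Cd200r1 (adjusted p = 0.0582). The block on the description number lost Cd200r1 (0.0837) there and gained Pirb (0.0399). A replicate block on the description number gave 0 in place of 1 for lean CD11c-negative over MHCII-low and 2 in place of 1 for the diet effect in monocyte-derived minus CD11c-negative.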
